A study of Mus musculus with 6 samples.

Results

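The genes described here encode the translocases that carry proteins into mitochondria. They were taken as the protein-coding genes of GENCODE M21 whose symbol starts with Timm or Tomm followed by a digit. The rule found 25 genes among the 54532 of the count table, 10 of them Tomm and 15 Timm. RNA was sequenced from quadriceps, the large thigh muscle, of mouse pups at postnatal day 10. The control group holds 3 libraries of Pcyt2 flox/flox pups, whose Pcyt2 alleles carry sites for Cre recombinase. The Myf5Cre-Pcyt2 group holds 3 libraries of Pcyt2 flox/flox pups that also carry Cre driven from Myf5, a gene active in muscle precursors. Both groups were on chow, and the study asks what loss of Pcyt2, an enzyme of phosphatidylethanolamine synthesis, does to gene expression in growing muscle. No label puts Cre in the controls, and an effect of Cre itself cannot be told apart from that of Pcyt2 loss, and cells outside the Myf5 lineage keep Pcyt2.

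Most mitochondrial proteins are made in the cytosol and enter through the TOM complex of the outer membrane, in which receptors (Tomm20, Tomm22, Tomm70a) hand precursors to the Tomm40 channel. Proteins with a cleavable presequence then cross the inner membrane through the TIM23 complex, while metabolite carriers are chaperoned across the space between the membranes by small Tim proteins and inserted by the TIM22 complex. Phosphatidylethanolamine is a main lipid of the membranes that hold these complexes. Skeletal muscle is rich in mitochondria, and their protein content rises as fibres mature after birth.

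Library totals lay between 17775898 and 20446920 counts. Pcyt2 had 353, 277 and 277 counts in control muscle and 280, 328 and 272 in Myf5Cre-Pcyt2 muscle, a log2 change of −0.28 (SE 0.11, adjusted p = 0.0944). Which exons Cre removes is not stated, so this count does not check the deletion. The 7 skeletal muscle markers were high in every library, with a summed level of 128977 to 183395 CPM, the count scaled to a common library total, in control muscle and 86531 to 108351 in Myf5Cre-Pcyt2 muscle. Replicate 3 of each group was male and the other 4 libraries were female by Xist and Y-linked counts. Levels are TMM-normalised CPM, TMM being edgeR's correction for differences in RNA composition, and log2 changes are the log2 of the fold of Myf5Cre-Pcyt2 over control. Scaling by library size alone moved the median of all genes by 0.21, so every change below is relative to TMM. In all, 22 of the 25 import genes passed the filter on low counts and were tested. Whole-muscle RNA does not separate fewer muscle cells from less of a transcript per cell.

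Promoters are shown for 3 import genes, to set the gene with the largest fall beside another that fell and a receptor gene that did not pass. RefSeq (GRCm38.p6) gave a promoter window, 250 bases before to 50 after the start, for 22 of the 25 genes, without Tomm7, Tomm40l and Timm21. The bases printed run 5′ to 3′ on the gene's strand and leave out annotated exons of any gene. Capitals mark CCGGAAG or its reverse complement, the core bound by ETS factors such as GABPA, a regulator of nuclear genes for mitochondrial proteins.
Timm8b (chr9:50603813-50603900, plus strand): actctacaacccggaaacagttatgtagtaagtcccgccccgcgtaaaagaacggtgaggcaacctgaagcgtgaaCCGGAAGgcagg
Timm17a (chr1:135313779-135313987, minus strand): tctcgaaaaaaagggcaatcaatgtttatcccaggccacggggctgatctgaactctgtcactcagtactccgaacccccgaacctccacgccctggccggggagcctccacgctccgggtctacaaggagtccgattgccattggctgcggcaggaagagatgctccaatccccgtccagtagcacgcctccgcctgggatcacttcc
Tomm22 (chr15:79670618-79670860, plus strand): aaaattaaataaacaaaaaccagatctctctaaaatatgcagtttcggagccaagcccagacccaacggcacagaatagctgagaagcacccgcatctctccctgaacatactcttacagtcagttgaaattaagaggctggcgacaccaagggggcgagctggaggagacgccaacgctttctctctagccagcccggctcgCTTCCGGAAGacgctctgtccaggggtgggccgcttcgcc

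The motif CCGGAAG stood on either strand in the windows of 9 of the 22 import genes with one (40.9%), against 9.93% of all 27025 genes with a window. Among genes tested in the fit, it stood in 8 of 19 import genes (42.1%) and in 19.0% of 10841 genes. In Tomm22 the 2 matches, 1 on each strand, overlap each other. GCGCATGC, the core of the site of NRF1, another such regulator, stood in 1 of the 22 windows (Timm13) and in 3.05% of all windows. Among genes tested in the fit, it stood in 1 of 19 import genes (5.26%) and in 5.66% of 10841 genes. Of the 3 genes below that fell and have a window, only Timm8b holds CCGGAAG, and of the 16 that did not pass and have a window, 7 hold it. These matches describe letters in a fixed window, and binding was not measured.

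Of the 22 tested import genes, 6 were lower in Myf5Cre-Pcyt2 muscle, 0 were higher and 16 did not pass (edgeR quasi-likelihood test, Benjamini-Hochberg adjusted p under 0.05 over 14715 genes). Across all genes tested, 9.59% were lower and 9.02% were higher. The 6 lower genes were Timm8b, Timm17a, Tomm7, Timm50, Timm21 and Tomm40l, with falls of 18.6 to 33.6% of the control mean. At an unadjusted p under 0.05, 10 were lower, with DESeq2 7 and with limma-voom 6, and in none of these was an import gene higher. Over all genes, 2560 of 14715 were lower at an unadjusted p under 0.05, 1470 of 14142 with DESeq2 and 1406 of 14715 with limma-voom. The median log2 change of the 22 was −0.21, against −0.00 over all genes, and 19 of the 22 values were negative. In 9 of the 22, every Myf5Cre-Pcyt2 library lay below every control library, against 2818 of all 14715 genes tested (19.2%). Every Myf5Cre-Pcyt2 library lay above every control library in 1 of the 22, Tomm34, against 2927 of all 14715 genes. The 25 genes sit on 16 chromosomes and the 6 lower ones on 5. The plot of fold changes by role shows how the falls are spread over the complexes.

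**Figure D1:**
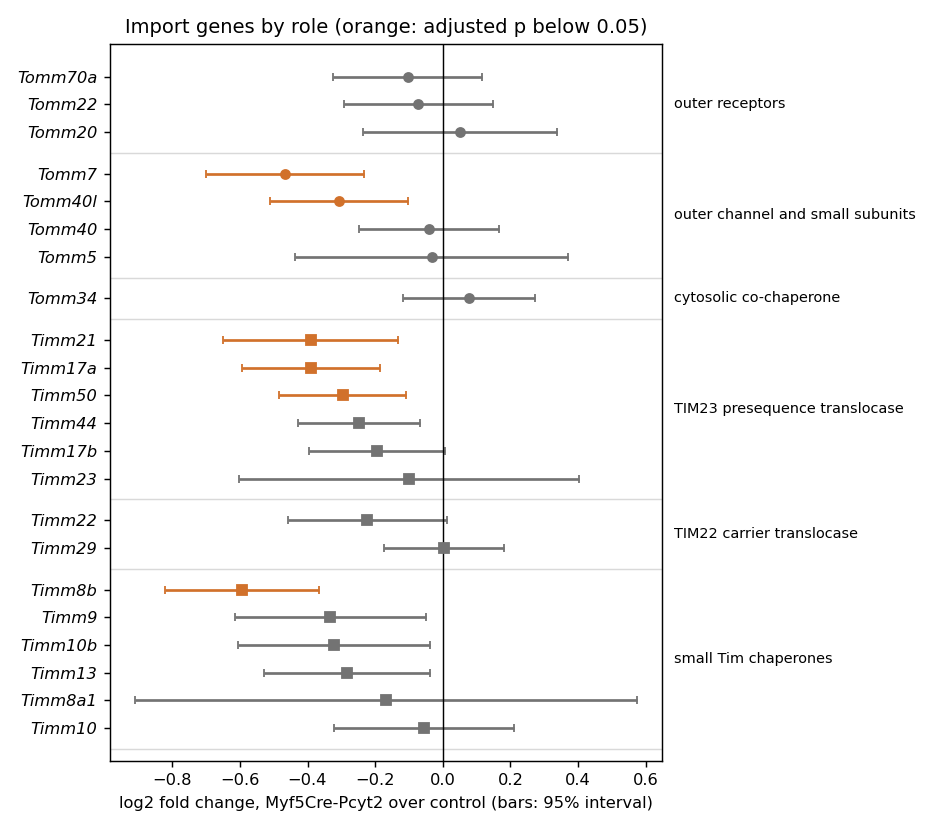
Log2 fold changes (Myf5Cre-Pcyt2 over control, horizontal axis) of the 22 tested import genes, grouped by role, with 95% intervals from the edgeR fit; circles are Tomm and squares Timm genes, and orange marks adjusted p under 0.05. The values run from −0.59 in Timm8b to 0.08 in Tomm34.

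Timm8b (ENSMUSG00000039016, chromosome 9, 50603910 to 50605320) encodes a small Tim protein of the space between the membranes, which partners Tim13 in carrying hydrophobic precursors. Its level was 61.1, 59.3 and 63.6 CPM in the control libraries and 47.0, 36.7 and 38.3 CPM in the Myf5Cre-Pcyt2 libraries. All Myf5Cre-Pcyt2 libraries lay below all control libraries. The mean fell from 61.3 ± 2.14 to 40.7 ± 5.54 CPM (SD, n = 3), a log2 change of −0.59 (SE 0.10, adjusted p = 0.00554). It passed in each of the 14 alternatives run, with adjusted p from 8.77e-07 to 0.0332. Per kb of exon it had the highest level of the 25 genes in both groups. Of its exon bases, 15.6% overlap Nkapd1 on the other strand, and the strand setting of the counting is not given. Timm8b shares its start region with Sdhd, a subunit gene of succinate dehydrogenase, whose annotated start lies 98 bases away on the other strand. Sdhd had a log2 change of −0.33 (SE 0.12) and did not pass (adjusted p = 0.0689). In all, 6 import genes have a protein-coding neighbour that starts within 1000 bases in the opposite direction. The other 5 neighbours had adjusted p from 0.553 to 0.778 in the edgeR fit.

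Among the other 5 tested small Tim genes, none passed in the edgeR fit, with DESeq2 or with limma-voom, and Timm9, Timm10b and Timm13 had an unadjusted p under 0.05. Timm9 and Timm10 encode the pair that chaperones metabolite carriers. Timm9 had 24.0, 22.9 and 27.6 CPM in control muscle and 23.8, 17.7 and 17.8 CPM in Myf5Cre-Pcyt2 muscle, so the groups overlapped (log2 change −0.33, SE 0.13, adjusted p = 0.0918). Timm10 differed less, with 23.2 ± 2.65 against 22.3 ± 3.08 CPM (SD, n = 3) and an interval of the log2 change from −0.32 to 0.21. Timm13, the partner of Timm8b, had 53.5 ± 5.93 and 44.0 ± 5.22 CPM (log2 change −0.28, SE 0.11, adjusted p = 0.0987). Timm10b, whose product associates with the TIM22 complex, had 9.79, 9.22 and 11.5 CPM against 8.54, 7.64 and 8.22 CPM, without overlap, at an adjusted p of 0.103. The exons of Timm10b overlap Gm45799 on the same strand (10.5% of its exon bases) and Arfip2 on the other strand (7.7%). Timm8a1, the mouse counterpart of the gene mutated in a human deafness and dystonia syndrome, lay at 1.16 to 1.56 CPM in control muscle and 0.655 to 1.66 CPM in Myf5Cre-Pcyt2 muscle. The Timm8a1 transcript is 100% identical over 612 bases to that of the pseudogene Gm9797. The handling of multiply mapped reads is not given, so the count of Timm8a1 is uncertain. Timm8a2 had 0 counts in all 6 libraries, which allows up to 3 counts per library, or 0.131 to 0.174 CPM. Timm9 passed without Myf5Cre-Pcyt2 replicate 1 (0.0215) and with no filter on low counts (0.0283).

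The TIM23 complex, which passes presequence proteins through the inner membrane, had 3 lower genes among 6. Timm17a (ENSMUSG00000062580, chromosome 1, 135295213 to 135313778) encodes a core subunit that lines the translocation path. It had 89.6, 98.3 and 95.1 CPM in control muscle and 76.7, 64.2 and 75.0 CPM in Myf5Cre-Pcyt2 muscle. The groups did not overlap, and the log2 change was −0.39 (SE 0.09, adjusted p = 0.0174). Timm50 (ENSMUSG00000003438, chromosome 7, 28305516 to 28312072), the receptor that takes presequences from the TOM complex, had 37.8, 41.8 and 43.3 CPM against 34.6, 32.9 and 32.6 CPM. These ranges were also apart, with a log2 change of −0.30 (SE 0.09, adjusted p = 0.0356). Timm21 (ENSMUSG00000024645, chromosome 18, 84946191 to 84951524) encodes the subunit that links the complex to TOM and to the respiratory chain. Its level was 22.3, 24.9 and 28.6 CPM in control muscle and 21.2, 19.7 and 16.9 CPM in Myf5Cre-Pcyt2 muscle. The highest Myf5Cre-Pcyt2 library stood just under the lowest control library, and the log2 change was −0.39 (SE 0.12, adjusted p = 0.0420).

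Timm44 anchors the import motor, the ATP-driven chaperone machine that pulls precursors into the matrix, to the channel. It had 90.1, 96.0 and 97.3 CPM in control muscle and 83.2, 75.4 and 80.2 CPM in Myf5Cre-Pcyt2 muscle. The groups did not overlap, but the adjusted p was 0.0580 (log2 change −0.25, SE 0.08), and only DESeq2 among the 14 alternatives gave a call (0.0460). Timm17b, the paralog of Timm17a on chromosome X, had 26.5 ± 1.96 and 23.2 ± 1.29 CPM (SD, n = 3; log2 change −0.20, SE 0.09, adjusted p = 0.155). Timm23 encodes the channel-forming core subunit, and its counts were 100, 110 and 138 in control muscle and 151, 101 and 129 in Myf5Cre-Pcyt2 muscle. Those ranges overlapped widely (interval of the log2 change −0.60 to 0.40). Its transcript is 99.9% identical over 1121 bases to that of Gm10273, annotated as protein coding and listed at 0 counts, and 5 pseudogenes are also close to it. The count of Timm23 is therefore uncertain.

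**Figure D2:**
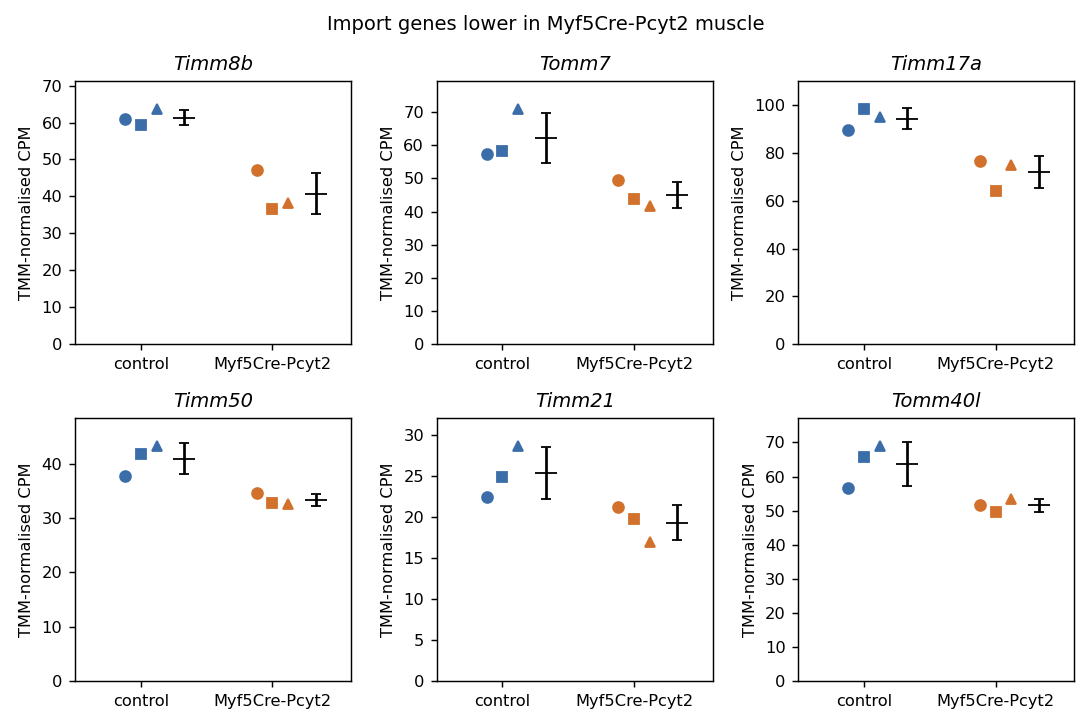
TMM-normalised CPM (vertical axes, starting at 0) of the 6 import genes past the threshold, in control (blue) and Myf5Cre-Pcyt2 (orange) libraries; circles, squares and triangles are replicates 1, 2 and 3, and black bars are the mean and SD (n = 3). In each gene the 3 Myf5Cre-Pcyt2 points lie below the 3 control points, by the widest margin relative to its level in Timm8b.

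The TIM22 complex, which inserts metabolite carriers into the inner membrane, had no call among its 2 genes, also at an unadjusted p under 0.05, with DESeq2 and with limma-voom. Timm22, its channel subunit, had 44.3 ± 5.24 CPM in control muscle and 37.9 ± 3.46 CPM in Myf5Cre-Pcyt2 muscle (SD, n = 3; log2 change −0.22, SE 0.11, adjusted p = 0.164). Timm29, a stabilising subunit, had 77.1, 84.5 and 79.0 CPM against 82.9, 77.0 and 81.4 CPM. Its interval of the log2 change, −0.17 to 0.18, was the narrowest of the 22, and it does not reach the fold changes of the 6 lower genes.

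None of the 3 tested receptor genes of the outer membrane passed. Tomm20, a receptor for presequences, had 30.2, 27.1 and 35.0 CPM in control muscle and 38.0, 28.1 and 29.8 CPM in Myf5Cre-Pcyt2 muscle, with an interval of the log2 change from −0.23 to 0.34. Its partner Tomm22 had 50.3, 52.1 and 63.4 CPM against 54.8, 51.4 and 51.4 CPM. Tomm70a, the receptor for metabolite carriers, was the most counted import gene, with 148, 147 and 163 CPM against 159, 129 and 140 CPM. The groups overlapped in all of these genes, and none of the 3 was called lower or higher by DESeq2 or limma-voom, or at an unadjusted p under 0.05. Tomm20l, a Tomm20 paralog, had 2 counts in Myf5Cre-Pcyt2 muscle replicate 1 and 0 in the other 5 libraries. Tomm34, a cytosolic co-chaperone that carries the Tomm name without belonging to the TOM complex, had 17.2 ± 0.884 and 18.2 ± 0.0558 CPM (adjusted p = 0.571).

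The channel and its small subunits gave both outer calls. Tomm7 (ENSMUSG00000028998, chromosome 5, 23838944 to 23844161) encodes a small subunit that tunes the assembly of the complex and holds PINK1, a kinase that marks damaged mitochondria, at the outer membrane. It had 57.5, 58.2 and 70.8 CPM in control muscle and 49.5, 43.7 and 41.8 CPM in Myf5Cre-Pcyt2 muscle. The groups lay apart, with a log2 change of −0.47 (SE 0.11, adjusted p = 0.0152). Tomm40l (ENSMUSG00000005674, chromosome 1, 171216011 to 171222514), a paralog of the channel gene, had 56.5, 65.7 and 69.0 CPM against 51.6, 49.7 and 53.3 CPM. It fell with a log2 change of −0.31 (SE 0.09, adjusted p = 0.0427). Of its exon bases, 64.3% overlap Nr1i3 on the other strand, whose level was 0.830 CPM in control muscle and 1.88 CPM in Myf5Cre-Pcyt2 muscle, and the strand setting of the counting is not given. Tomm40 itself had 57.7, 47.2 and 53.1 CPM against 53.0, 52.0 and 48.6 CPM, with an interval of the log2 change from −0.25 to 0.17. Tomm5, another small subunit, spread from 8.41 to 12.7 CPM in control muscle and from 8.59 to 13.0 CPM in Myf5Cre-Pcyt2 muscle. Tomm6 had only 1 to 11 counts per library and was not tested. Gm21981, on the same strand, covers 76.0% of the exon bases of Tomm6, so the count of Tomm6 is uncertain.

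The calls of the 5 lower genes other than Timm8b were lost under some alternatives. With library size alone, Timm17a (adjusted p = 0.169), Tomm7 (0.134), Tomm40l (0.520), Timm50 (0.553) and Timm21 (0.324) did not pass, and their log2 changes shrank to between −0.26 and −0.09. Timm17a was lost without control replicate 2 (0.0573) or Myf5Cre-Pcyt2 replicate 2 (0.0791), and Tomm7 without Myf5Cre-Pcyt2 replicate 2 (0.0692) or 3 (0.0672). Timm50 did not pass without control replicate 2 or 3 (0.0996 and 0.0889) or without Myf5Cre-Pcyt2 replicate 1, 2 or 3 (0.0562, 0.123 and 0.128). Tomm40l was lost in the same 5 cases (0.120, 0.109, 0.0847, 0.149 and 0.0979). Timm21 was lost without control replicate 2 or 3 (0.0899 and 0.119) and Myf5Cre-Pcyt2 replicate 2 or 3 (0.111 and 0.156). With 1 library left out, the log2 change stayed negative and lay at −0.44 to −0.31 in Timm17a, −0.54 to −0.37 in Tomm7, −0.35 to −0.26 in Timm50, −0.39 to −0.25 in Tomm40l and −0.47 to −0.29 in Timm21. Over the 14 alternatives the adjusted p ranged from 0.00254 to 0.169 in Timm17a, 0.000197 to 0.134 in Tomm7, 0.0256 to 0.553 in Timm50, 0.0182 to 0.520 in Tomm40l and 0.00664 to 0.324 in Timm21.

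Sex differed between libraries but was balanced over the groups. With a covariate for sex, Timm8b, Timm17a and Tomm7 still passed, while Tomm40l (0.0544), Timm50 (0.0582) and Timm21 (0.0630) did not. Within the 4 female libraries the log2 difference of the means was −0.52 in Timm8b, −0.41 in Timm17a, −0.31 in Tomm7, −0.27 in Tomm40l, −0.24 in Timm50 and −0.21 in Timm21. Between the 2 male libraries it was −0.73, −0.34, −0.76, −0.37, −0.41 and −0.76 in the same order. The sign was negative within each sex in all 6 genes, and a single library per group among males allows no test.

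The Tomm and Timm genes were then set side by side as outer and inner classes. These classes follow the gene names, so the outer class holds the cytosolic Tomm34. The inner class holds the small Tim genes, whose products lie between the membranes. Of 8 tested Tomm genes, 2 were lower, with a median log2 change of −0.06, and of 14 tested Timm genes, 4 were lower, with a median of −0.27. Leaving out 1 library moved the Tomm median to between −0.15 (without Myf5Cre-Pcyt2 replicate 1) and −0.00 (without control replicate 3), and the Timm median to between −0.35 and −0.21. For each library, the median of its genes' log2 deviations from their control means was computed for both classes. For the Timm genes these medians were −0.07, −0.05 and 0.15 in control muscle and −0.15, −0.34 and −0.29 in Myf5Cre-Pcyt2 muscle. For the Tomm genes they were −0.03, −0.09 and 0.15 against 0.03, −0.12 and −0.12. At TMM scaling the Timm medians of the groups did not overlap, and the Tomm medians did. With library size alone, the median log2 change was 0.15 for the Tomm and −0.060 for the Timm genes. Control replicate 3 had the highest median of both classes. The outer median minus the inner median, in which a library's own scaling factor cancels, was 0.04, −0.04 and −0.00 in control muscle and 0.18, 0.22 and 0.17 in Myf5Cre-Pcyt2 muscle.

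The summed Tomm level was 431, 423 and 484 CPM in control muscle and 438, 382 and 391 CPM in Myf5Cre-Pcyt2 muscle. For Timm it was 560, 581 and 620 CPM against 528, 460 and 477 CPM. The ratio of the 2 sums was 0.770, 0.729 and 0.780 in control muscle and 0.829, 0.832 and 0.821 in Myf5Cre-Pcyt2 muscle. It was thus higher in every Myf5Cre-Pcyt2 library, by 0.0675 on average, and no test was made on it because it is a score over genes chosen with results known. Without Tomm70a, the most counted of the genes, the difference was 0.0370, and the ranges 0.475 to 0.517 and 0.528 to 0.552 still lay apart. Without Tomm34 the ranges were 0.699 to 0.754 in control and 0.783 to 0.795 in Myf5Cre-Pcyt2 muscle. Without Timm8b they were 0.812 to 0.870 and 0.893 to 0.911.

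**Figure D3:**
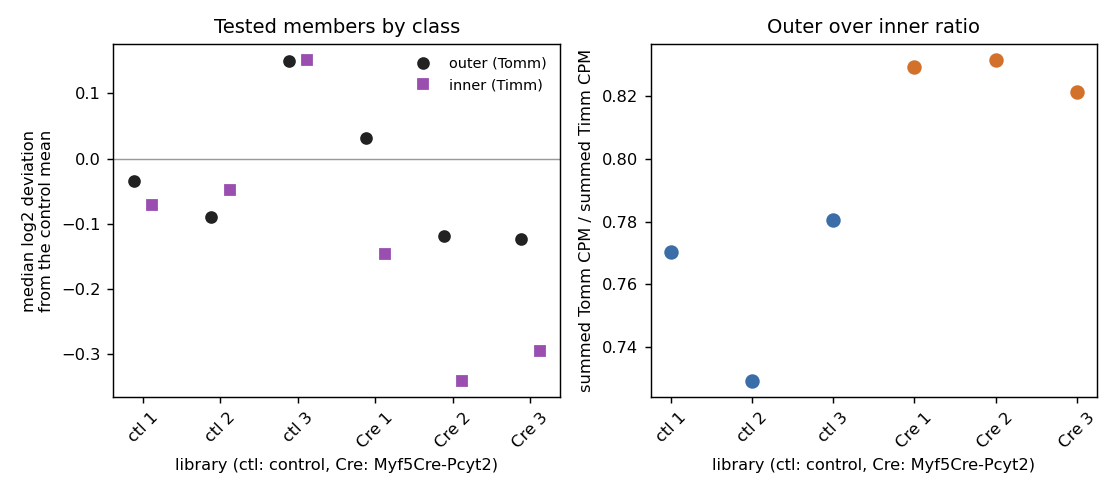
Left, the median over genes of the log2 deviation from the control mean (vertical axis) for the 8 Tomm (circles) and 14 Timm (squares) genes tested, in each library. Right, the summed Tomm CPM divided by the summed Timm CPM in control (blue) and Myf5Cre-Pcyt2 (orange) libraries, on an axis that does not start at 0; control libraries reach 0.780 at most and Myf5Cre-Pcyt2 libraries start at 0.821.

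Paralogs were compared within each library as log2 ratios of their counts, for the 4 of 5 chosen pairs in which both genes had counts in every library. The count of Timm10 was 2.38, 2.22 and 2.25 times that of Timm10b in control muscle and 3.03, 2.62 and 2.57 times in Myf5Cre-Pcyt2 muscle, without overlap. The log2 difference of 0.26 had p = 0.1 by exact permutation (two-sided), the least that 3 against 3 libraries can give (0.4 adjusted over the 4 pairs). The log2 ratio of Timm17a over Timm17b was 1.83 ± 0.105 in control muscle and 1.63 ± 0.217 in Myf5Cre-Pcyt2 muscle (SD, n = 3; exact permutation test, p = 0.3). The log2 ratio of Tomm40 over Tomm40l was −0.28 ± 0.268 and −0.01 ± 0.106 (exact permutation test, p = 0.2). That of Timm8a1 over Timm8b was −5.56 ± 0.184 and −5.19 ± 0.536 (exact permutation test, p = 0.4), and the count of Timm8a1 is uncertain. Leaving out 1 library moved the log2 difference to between −0.26 and −0.07 for Timm17a over Timm17b (the smallest without Myf5Cre-Pcyt2 replicate 2), 0.16 and 0.42 for Tomm40 over Tomm40l, 0.18 and 0.67 for Timm8a1 over Timm8b and 0.19 and 0.30 for Timm10 over Timm10b. Tomm40l fell and Tomm40 did not pass. The exact test cannot give a p below 0.1 with 3 against 3 libraries, so it cannot decide whether their ratio changed. The log2 ratios of Tomm40 over Tomm40l overlapped between the groups. Tomm20 over Tomm20l had no ratio because Tomm20l was at 0 in 5 libraries.

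Levels can be compared between genes per kb of exon, on which scale the 22 tested genes spanned from 0.925 ± 0.154 CPM per kb in Timm8a1 to 118 ± 4.13 in Timm8b in control. Tomm7 came next with 55.3 ± 6.67 CPM per kb (SD, n = 3), followed by Timm13 with 39.0 ± 4.32 and Tomm22 with 33.5 ± 4.29, which did not differ beyond their spread. Tomm5, Tomm40l, Timm17a and Tomm40 lay together between 11.7 and 12.7 CPM per kb, within their SDs. The receptor gene Tomm20 stood at 6.27 ± 0.811 CPM per kb, below Tomm22. Timm8b remained the highest in Myf5Cre-Pcyt2 muscle, at 78.6 ± 10.7 CPM per kb, above Tomm7 at 40.0 ± 3.59. The exon length joins all annotated transcripts, so genes with long alternative ends have low values. The count of Timm8a1 may also miss reads shared with Gm9797.

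**Figure D4:**
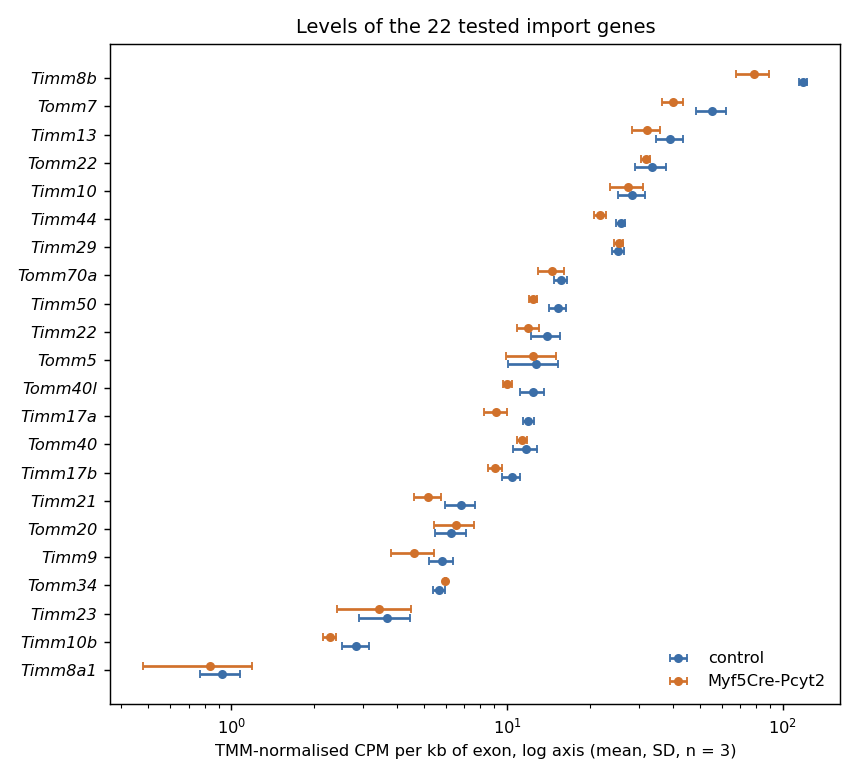
Levels of the 22 tested import genes in TMM-normalised CPM per kb of exon (horizontal, log axis), as the mean and SD of 3 libraries per group in control (blue) and Myf5Cre-Pcyt2 (orange). Timm8b is highest in both groups, at 118 and 78.6 CPM per kb, and the order of the levels spans from it down to Timm8a1.

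Genes that work with the translocases were read from 6 further lists, with 32 genes, all of them tested. Of these, 4 were lower, 0 higher and 28 did not pass, and none was higher at an unadjusted p under 0.05 or with DESeq2 or limma-voom. Lower genes numbered 14 at an unadjusted p under 0.05, 10 with DESeq2 and 4 with limma-voom. Over all genes these counts were 2560 of 14715, 1470 of 14142 and 1406 of 14715. The median of the 32 was −0.18, and 12.5% of them were lower in the edgeR fit against 9.59% of all genes. In the import motor, 2 of 7 were lower, namely Dnajc15, a J-protein that drives the motor's chaperone (50.3 ± 5.68 to 36.2 ± 5.78 CPM, log2 change −0.48, SE 0.12, adjusted p = 0.0248), and Grpel2, a nucleotide exchange factor (18.1 ± 1.58 to 13.7 ± 1.71 CPM, log2 change −0.40, SE 0.12, adjusted p = 0.0376). Of 7 peptidases that trim imported proteins, Mipep was lower, with 42.9, 56.1 and 51.1 CPM against 37.6, 31.4 and 34.5 CPM (log2 change −0.54, SE 0.11, adjusted p = 0.0111). In the contact site complex, which shapes the cristae, 1 of 8 was lower, Immt, its core subunit (392 ± 29.4 to 301 ± 28.7 CPM, log2 change −0.38, SE 0.11, adjusted p = 0.0318).

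In the other 3 lists no gene passed in the edgeR fit. Mtch2, an outer membrane insertase, had the smallest p of the 6 genes of beta-barrel assembly and insertion (log2 change −0.32, SE 0.11, adjusted p = 0.0723). In that list 2 genes were lower at an unadjusted p under 0.05 and with DESeq2, and 0 with limma-voom, and Mtch2 passed without Myf5Cre-Pcyt2 replicate 1 (0.0363). Of the 2 genes of the disulfide relay, Chchd4, the oxidoreductase that traps small Tim proteins, had 27.0 ± 3.46 and 24.9 ± 2.08 CPM (log2 change −0.12, SE 0.11, adjusted p = 0.469). Cox18, an inner membrane insertase, had a log2 change of −0.53 (SE 0.25, adjusted p = 0.165). Over the 14 alternatives its log2 change ran from −0.76 to −0.26 and its adjusted p from 0.00342 to 0.485, with 0.0471 without control replicate 3 and 0.485 without control replicate 1, and between the 2 male libraries the difference was 0.02. Oxa1l, the other gene of that list, had the smaller log2 change of −0.06. In these last 2 lists 0 genes passed at an unadjusted p under 0.05, with DESeq2 or with limma-voom.

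Without Myf5Cre-Pcyt2 replicate 2, Mipep (0.0610), Dnajc15 (0.108), Grpel2 (0.145) and Immt (0.124) did not pass. With library size alone Mipep was the only one of these 4 that did. Dnajc15, Grpel2 and Immt were lost as well without control replicate 3 (0.0666, 0.0686 and 0.0670) and Myf5Cre-Pcyt2 replicate 3 (0.0900, 0.105 and 0.0747), and Grpel2 and Immt without control replicate 2 (0.120 and 0.0823). Grpel2 was lost with the covariate for sex (0.0568). The adjusted p ranged over the 14 alternatives from 1.88e-05 to 0.0610 in Mipep, 0.000210 to 0.146 in Dnajc15, 0.00973 to 0.244 in Grpel2 and 0.00234 to 0.209 in Immt.

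Of 12 genes used as gauges of mitochondrial content, 3 were lower and none was higher at an unadjusted p under 0.05 or with DESeq2 or limma-voom. In the edgeR fit, 9.59% of all genes tested were lower and 9.02% higher. In this list 7 genes were lower at an unadjusted p under 0.05, 7 with DESeq2 and 4 with limma-voom. Over all genes these counts were 2560 of 14715, 1470 of 14142 and 1406 of 14715. The median of the 12 genes was −0.31, and all 12 values were negative. The 3 lower genes were Cox4i1 (log2 change −0.47, SE 0.11, adjusted p = 0.0165), Uqcrc2 (−0.44, SE 0.11, adjusted p = 0.0201) and Cs, the citrate synthase gene (−0.37, SE 0.11, adjusted p = 0.0422). Of 7 carriers of the inner membrane, which the TIM22 route imports, Slc25a3 and Slc25a11 were lower (log2 changes −0.44 and −0.34). Of the 7 carriers, 5 were lower at an unadjusted p under 0.05, 5 with DESeq2 and 3 with limma-voom. With library size alone these 5 genes (Cox4i1, Uqcrc2, Cs, Slc25a3 and Slc25a11) had adjusted p from 0.0794 to 0.363. Cox4i1 and Uqcrc2 were lost without Myf5Cre-Pcyt2 replicate 2 (0.0756 and 0.0900) or 3 (0.0875 and 0.0800), and the other 3 without either of these or control replicate 2 or 3, with adjusted p from 0.0614 to 0.154. Cs (0.0524) and Slc25a11 (0.0602) were also lost without Myf5Cre-Pcyt2 replicate 1, and Cs, Slc25a3 and Slc25a11 with the covariate for sex (0.0754, 0.0503 and 0.0512). Some cell type markers also differed between the groups, and their counts stand beside the same shares of 9.59% lower and 9.02% higher. Of the 7 skeletal muscle markers 3 were lower, of 4 satellite cell markers 2 were higher (sums of up to 48.8 against 58.8 to 66.3 CPM), and of 5 endothelial markers 1 was lower (604 to 756 against 640 to 726 CPM). Of 5 erythroid markers 1 was higher (222 to 332 against 260 to 358 CPM), and the 5 macrophage markers summed to 113 to 136 against 136 to 155 CPM with no call. The summed level of 6 Schwann cell markers was 406 to 499 CPM in control muscle and 607 to 824 CPM in Myf5Cre-Pcyt2 muscle, with 4 of 6 genes higher, and that of 5 fibroblast markers was 8372 to 10905 CPM against 11517 to 13130 CPM, with 1 of 5 higher. None of these markers was at 0 in every library. The 5 adipocyte markers, which include the brown fat gene Ucp1, had no call and summed to 297, 20.5 and 105 CPM in control muscle and 60.5 to 79.3 CPM in Myf5Cre-Pcyt2 muscle. The part of these shifts in the falls of the import genes was not tested.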

How the data were processed

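The authors deposited raw counts per Ensembl gene for 6 libraries of quadriceps RNA. The submitters' processing notes name GRCm38 (mm10), featureCounts (Subread 1.6.2), Bowtie2 2.3.4.1 and Trim Galore 0.5.0. Not given in the sources used here are the annotation release, the strand setting and the handling of multiply mapped reads. Gene names, positions and exon lengths came from GENCODE M21.

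In R 4.3.3, edgeR 4.0.16 filtered genes (filterByExpr, 14715 of 54532 kept), scaled libraries by TMM and compared the groups (two-sided quasi-likelihood test, p adjusted by Benjamini-Hochberg over all tested genes, threshold 0.05). The procedure was run on simulated data with known folds, as many up as down, which does not test the dependence on TMM. Each SE was derived from the fit as the absolute log2 change over the square root of the test statistic F. The 95% intervals follow from this SE and a t quantile, and cover the spread between these 6 libraries. Litters are not named in the labels, and the p-values measure only that spread. The counts of any 2 libraries differed beyond counting noise (chi-square per degree of freedom at least 12). Whether part of the spread is technical was not tested. Transcripts were compared with blastn 2.17.0 (at least 95% identity over 200 bases). Alternatives used DESeq2 1.42.0 (test or size factors), limma-voom (limma 3.58.1), library size alone, 2 other filters, a block for the replicate number, sex as a covariate, and fits leaving out each library.

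The genes, lists and named genes were chosen with earlier results of these data known. All import genes are accounted for. Of each other list, up to 3 genes past the threshold with the smallest p are named, or the single smallest. Divergent neighbours, Nr1i3, Nkapd1, Gm21981, Gm10273, Gm9797, Gm45799, Arfip2, Oxa1l and the ratios without Tomm70a, Tomm34 or Timm8b were chosen after values were seen.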

Additional observations from a re-analysis of the deposited data

How the results depend on the processing

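Of the 308 values that 14 alternatives gave for the 22 tested import genes, 250 kept their direction and their side of the threshold, 29 of called genes no longer passed, 3 newly passed and 26 changed sign, all 26 in genes that did not pass. No import gene was higher in any of them. With library size alone, 1 import gene was lower (0 Tomm, 1 Timm) and 1 of the other import genes, the Tomm median was 0.15 and the Timm median −0.060. The same scaling turned Tomm5 to 0.16, Tomm22 to 0.13, Tomm40 to 0.16, Tomm70a to 0.10, Timm8a1 to 0.034, Timm10 to 0.14, Timm17b to 0.014, Timm23 to 0.10 and Chchd4 to 0.085 on the log2 scale. Timm29 turned to −0.00199 with DESeq2 size factors and −0.00984 with DESeq2. The other import genes had 10 lower with DESeq2 and 10 with no filter. With sex as a covariate 3 import genes were lower (1 Tomm, 2 Timm). The ratio difference without Tomm70a, an alternative chosen after seeing the data, was 0.0370.

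Same-numbered libraries had correlations of their deviations of −0.111, −0.174 and 0.0182. These values do not show pairing by number, and with 3 libraries per group they cannot decide whether pups were matched. Replicate 3 was male in both groups, so the numbers did go with sex. With a replicate block, 1731 genes passed in place of 2739, with 3 import genes lower (1 Tomm, 2 Timm) and 2 of the other import genes.

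Leaving out each library in turn gave 846 to 2785 genes called, with 846 without Myf5Cre-Pcyt2 replicate 2, 1280 without its replicate 3 and 1300 without control replicate 2. Lower import genes numbered 1 to 6 (Tomm 0 to 2, Timm 1 to 4), and lower genes among the other import genes 0 to 6. The log2 changes ranged from −0.19 to 0.11 in Tomm5, −0.090 to 0.15 in Tomm20, −0.13 to 0.036 in Tomm22, −0.11 to 0.032 in Tomm40, −0.47 to 0.14 in Timm8a1, −0.17 to 0.023 in Timm10, −0.34 to 0.095 in Timm23 and −0.022 to 0.045 in Timm29. The intervals of the log2 change were widest in Timm8a1 (−0.91 to 0.58) and Timm23 (−0.60 to 0.40).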
